A study of Mus musculus with 6 samples.

Results

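The proteasome subunit genes of mouse quadriceps muscle are described here, in males that lack the estrogen receptor ERα in muscle and in wild-type males. The set held the 50 protein-coding genes, among 21772 protein-coding and 48795 total features of the count table, whose symbol is Psm, a letter from a to g, and then a digit. Quadriceps came from male C57BL/6 mice, 20 weeks old, in 2 groups of 3 RNA sequencing libraries. The MERKO group is labelled as a muscle-specific knockout of ERα (gene Esr1), and the control group as wildtype. No label says which promoter drives the deletion or whether each library came from 1 animal, so every p-value reflects only the spread among the libraries, which may be technical.

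The proteasome degrades proteins that carry chains of ubiquitin. Its barrel-shaped 20S core stacks rings of alpha subunits (Psma) on rings of beta subunits (Psmb), some of which cut peptide bonds on the inside of the barrel. A 19S regulatory particle caps the barrel. Its base holds a ring of ATPases (Psmc) that unfold substrates, and its lid (most Psmd genes) removes ubiquitin. The core and 19S cap together form the 26S proteasome. Other caps (Psme) open the core without ATP, and dedicated chaperones build both particles. In skeletal muscle this system clears myofibrillar proteins, and its activity increases in wasting. Transcription factors of the Nrf family (Nfe2l1, Nfe2l2) act on many subunit genes through antioxidant response elements, and interferon induces the inducible beta subunits.

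By role, the 50 genes were 8 of the alpha ring, 4 structural, 3 catalytic and 4 inducible beta genes, 6 ATPases, 3 other base genes, 8 lid genes, 3 chaperones of the base, 5 activators, 5 genes of core assembly or inhibition, and Psmc3ip. The last encodes a meiotic recombination factor, not a proteasome subunit, and is kept because its symbol meets the rule. The 31 of these genes that encode subunits of the ordinary 26S particle in somatic cells (14 of the core, 17 of the cap) are called standard subunits in what follows. The cap subunits Adrm1 and Sem1 do not meet the symbol rule and are counted among the proteasome partners below.

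Upstream sequences are shown first for genes that held a match to a short motif, so that the letters can be read beside the values below. Psmd12 is not discussed below (log2 fold change, MERKO minus control, -0.16, SE 0.09). RefSeq promoters (GRCm38.p6, from 250 bases before to 50 bases after each start) matched 42 of the 50 genes. The antioxidant response element core, spelled TGACNNNGC and searched on both strands, was found in 6 of the 42, of which 4 are standard subunits. Each is given as 40 bases 5′ to 3′ on the gene's strand, with the match in capitals. Where the capitals start with GC, the match lies on the opposite strand.

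Psmb5 (catalytic, chr14:54618019-54618058, minus strand): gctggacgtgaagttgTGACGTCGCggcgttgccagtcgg
Psmb6 (catalytic, chr11:70525317-70525356, plus strand): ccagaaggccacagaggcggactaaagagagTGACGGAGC
Psmc6 (base ATPase, chr14:45329581-45329620, plus strand): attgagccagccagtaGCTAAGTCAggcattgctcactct
Psmd12 (lid, chr11:107479278-107479317, plus strand): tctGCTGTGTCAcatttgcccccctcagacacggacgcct
Psmd9 (base chaperone, chr5:123228143-123228182, plus strand): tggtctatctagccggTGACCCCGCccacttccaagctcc
Psme4 (activator, chr11:30771737-30771776, plus strand): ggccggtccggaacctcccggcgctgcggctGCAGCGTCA

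The match began 47 bases before the start in Psmb5, 9 in Psmb6, 227 in Psmc6, 247 in Psmd12, 31 in Psmd9 and 7 in Psme4. It occurred in 16.0% of the 25 standard subunits with a promoter, in 17.2% of 10031 tested genes and in 12.4% of all 32851 promoters, so these letters were no more frequent among the subunits than among expressed genes. The ETS site, spelled CCGGAAG on either strand, was found in 10 of the 25 standard subunits (40%), against 19.6% of tested genes and 8.86% of all promoters. The CCAAT box was found in 10 of 25 (40%), against 42.4% and 37.4%. ETS matches are shown as examples for Psmc6, Psmd6 and Psma6, from the base, the lid and the alpha ring. The Psma6 match belongs to a second RefSeq start inside the annotated gene, and the promoter at its first start held no ETS match. Psmb4, Psmd14 and Psmd5, which also had low p-values below, have a promoter in the table without this match.

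Psmc6 (chr14:45329707-45329746, plus strand): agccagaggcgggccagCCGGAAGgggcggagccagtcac
Psmd6 (chr14:14120968-14121007, minus strand): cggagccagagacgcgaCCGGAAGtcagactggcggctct
Psma6 (chr12:55398676-55398715, plus strand): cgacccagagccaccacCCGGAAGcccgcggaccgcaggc

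The catalytic gene Psmb5 and its inducible counterpart Psmb8 are printed over all 250 bases before their RefSeq starts. This sets an ordinary and an interferon-inducible subunit beside each other. In Psmb8, as in Psmb9, these bases lie inside the annotated gene. Capitals mark the antioxidant element in Psmb5 and, in Psmb8, a STAT site spelled TTCNNNGAA, which was found in 8.06% of tested genes and 8.30% of all promoters. The STAT site was found in 3 of the 42 genes with a promoter, Psmb8, Psmd2 and Psmg1. The interferon-stimulated response element was also searched and was not found in Psmb8, Psmb9 or Psmb10. Bases before the annotated gene starts of Psmb8 and Psmb9 were not searched. The element was found in Psmb3, Psmd4, Psmd9, Psmg4 and Psme1, of which the last is induced by interferon. That is 2 of the 25 standard subunits (8.0%), against 3.64% of tested genes and 3.44% of all promoters. A match describes letters only.

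Psmb5 (chr14:54617996-54618245, minus strand): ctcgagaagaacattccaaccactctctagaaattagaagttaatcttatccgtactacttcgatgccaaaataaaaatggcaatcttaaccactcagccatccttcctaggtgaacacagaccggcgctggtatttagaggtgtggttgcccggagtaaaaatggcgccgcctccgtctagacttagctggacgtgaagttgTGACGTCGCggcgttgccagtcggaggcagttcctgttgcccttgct
Psmb8 (chr17:34197945-34198194, plus strand): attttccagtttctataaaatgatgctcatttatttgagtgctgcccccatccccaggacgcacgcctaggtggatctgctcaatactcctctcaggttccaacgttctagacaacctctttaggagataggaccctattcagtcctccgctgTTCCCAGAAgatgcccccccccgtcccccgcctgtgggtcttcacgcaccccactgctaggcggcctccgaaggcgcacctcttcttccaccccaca

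The libraries held between 14935532 and 44282448 counts, and proteasome genes took 0.211% to 0.387% of them. Esr1, the targeted gene, stood at 6.75, 9.43 and 7.46 CPM in MERKO 1 to 3, against 25.1, 34.1 and 31.1 in control 1 to 3, so its groups did not overlap (log2 fold change -1.95, SE 0.16, adjusted p = 0.0262, edgeR quasi-likelihood test with Benjamini-Hochberg adjustment). It missed the threshold without MERKO 1, MERKO 2, control 2 or control 3 (adjusted p of 0.102, 0.0576, 0.109 and 0.0632, edgeR). CPM is counts per 1000000 counts of the library size after TMM scaling. An rRNA gene model took 0.0433% of counts in control 3, the deepest library, and 6.19% to 32.4% in the others. Summed CPM of 12 skeletal muscle markers, all with reads in every library, was lowest in MERKO 1, at 123700 against 151100 to 178100 in the other 5. The myosin genes Myh1 and Myh2 were instead highest in MERKO 1, at 10100 and 3050 CPM. Each of the other markers was lowest there, with Myh4 at 39900 CPM against 55600 to 81200 in the rest. Slow-fibre markers summed to 541.7 CPM in MERKO 1 and 563.3 in control 1, and to 44.3 to 56.4 in the rest. Of the other marker lists, 9 of 10 tested adipocyte genes were lower in MERKO (summed CPM 204 to 295 in MERKO, 300 to 656 in control; Cidea and Adrb3, not tested, had reads in every library). Tendon genes were higher in 11 of 12 (97.3 to 482 against 37.6 to 99.7 CPM), and all 8 tested nerve genes were higher (40.6 to 63.5 against 28.3 to 37.5 CPM). The part of these in the results below was not tested. In whole muscle, fewer cells of a type and less RNA per cell cannot be told apart.

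Nearly all standard subunits were slightly lower in MERKO than in control, and no single gene passed the test. Of the 50 genes, 48 had enough counts to be tested. Of these, 41 had a log2 fold change below 0 and 7 above, with a median of -0.15, whereas 47.9% of all 13628 tested genes lay below 0, with a median of 0.01. Among the 31 standard subunits, 30 were lower, with a median of -0.17 and values from -0.28 (Psmb4) to 0.03 (Psmd3). The other 17 tested members, which are inducible, accessory and assembly genes and Psmc3ip, were lower in 11 cases, with a median of -0.08.

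In edgeR, 0 of the 48 genes reached an adjusted p below 0.05, where 0.00734% of all genes did (Esr1 alone), and the smallest adjusted p among them was 0.683. DESeq2 called 0 of them, against 0.166% of all genes. With limma-voom the count was also 0, and its share of all genes is not given here. At an unadjusted p under 0.05 there were 6 of the 48, all lower (Psmc6, Psmb7, Psmd5, Psmd6, Psmd14 and Psmb4), against 7.04% of all genes in either direction and 3.34% lower. All 3 MERKO libraries lay below all 3 control libraries in 17 of the 48 genes, against 7.10% of all genes. The opposite order, with every MERKO library higher, occurred in 0 of the 48, against 6.17% of all genes.

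**Figure D1:**
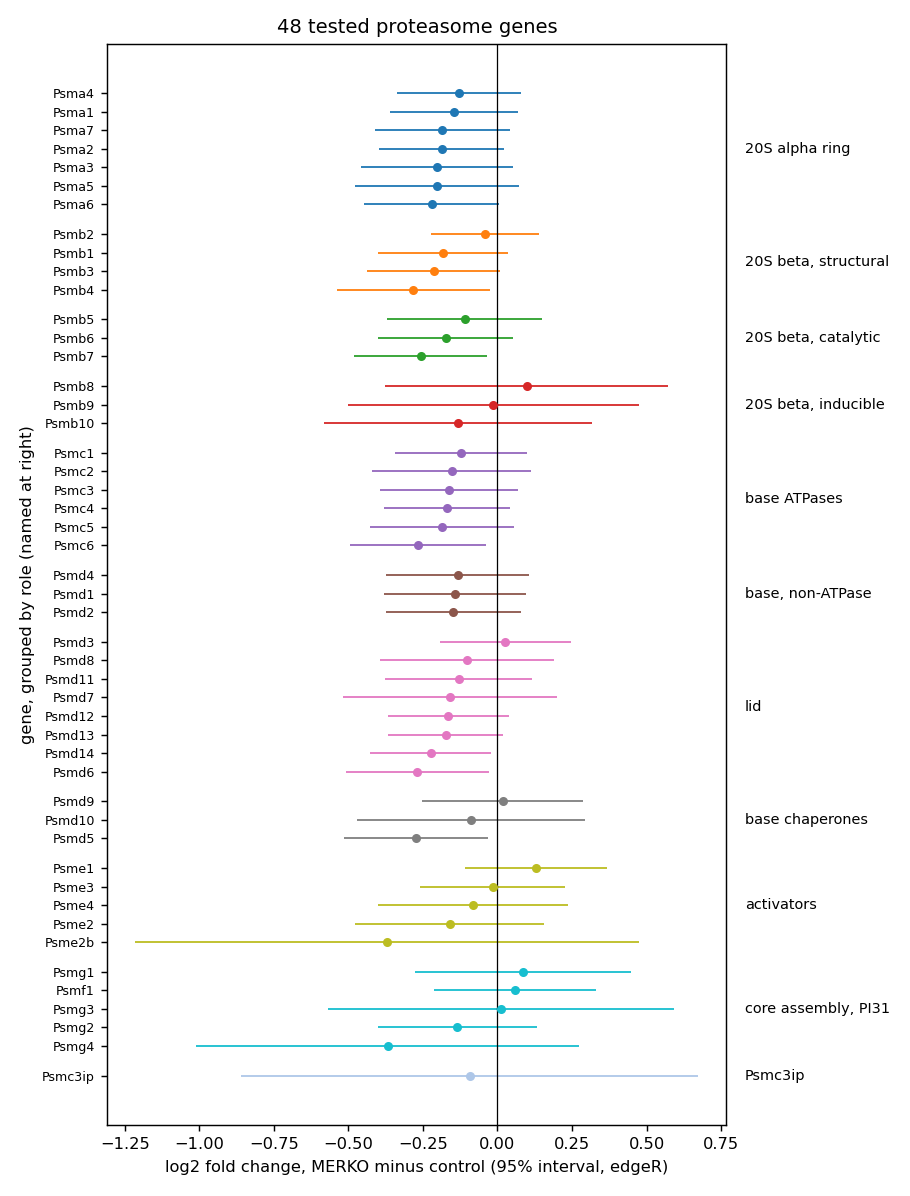
Log2 fold change (MERKO minus control, horizontal axis) of the 48 tested genes with 95% intervals from edgeR, one gene per line, grouped by role. The points of 41 genes lie left of 0, and the whole interval does so in Psmc6, Psmb7, Psmd5, Psmd6, Psmd14 and Psmb4.

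The alpha ring forms the gate of the core. All 7 expressed alpha genes were lower in MERKO, between -0.22 and -0.13 on the log2 scale, and the groups did not overlap in 3 of them, Psma6, Psma2 and Psma1. Psma6 stood at 40.8, 41.0 and 45.9 CPM in MERKO 1 to 3, against 47.9, 46.6 and 54.1 in control 1 to 3. All MERKO values lay below the control values, with a narrow gap between control 2 and MERKO 3 (log2 fold change -0.22, SE 0.10, adjusted p = 0.713, edgeR). Psma2 was nearly level in MERKO, at 49.9, 50.2 and 49 CPM, and stood at 57.1, 51.6 and 60.7 CPM in control, without overlap (log2 fold change -0.19, SE 0.09). Psma7 was at 49.2 ± 1.86 CPM in MERKO against 55.8 ± 5.46 CPM in control (SD, n = 3 each), and its groups overlapped. Psma8, the alpha subunit of the testis, had too few reads to test, with 1 to 8 counts in a library.

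Of the structural beta genes, which carry no active site, all 4 were lower, with 3 of 4 not overlapping. Psmb4 had the lowest log2 fold change of the standard subunits. It stood at 66.5, 59.6 and 52.4 CPM in MERKO 1 to 3, against 74.7, 66.9 and 75.4 in control 1 to 3. MERKO 1 and control 2 nearly met, and MERKO 3 lay far below the rest (log2 fold change -0.28, SE 0.11, 95% interval -0.54 to -0.03, adjusted p = 0.683, edgeR). Psmb3 was at 38.9 ± 1.74 and 45.1 ± 4.04 CPM, and Psmb1 at 57.3 ± 2.51 and 65.0 ± 5.32 CPM. Psmb2, singled out after its values were seen, varied little, with all 6 libraries between 39.3 and 41.6 CPM (log2 fold change -0.04), and its groups overlapped.

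The ordinary catalytic genes are Psmb6, Psmb7 and Psmb5, whose products cut after acidic, basic and hydrophobic residues. Psmb7 stood at 107, 112 and 114 CPM in MERKO 1 to 3, against 132, 122 and 144 in control 1 to 3. Every MERKO library was below every control library (log2 fold change -0.26, SE 0.10, 95% interval -0.48 to -0.03, adjusted p = 0.683, edgeR). Psmb6 was at 79.7, 88.1 and 84.6 CPM in MERKO against 91.0, 89.3 and 104 CPM in control, again without overlap but with MERKO 2 and control 2 close together (-0.17, SE 0.10). Psmb5 was at 18.4, 21.1 and 19.8 CPM in MERKO against 22.3, 18.5 and 22.8 CPM in control, so its groups overlapped (-0.11, SE 0.11). Reads of Psmb7 may include some of Nek6, whose exons cover 11.8% of its exon length on the other strand.

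The inducible beta genes replace the ordinary catalytic ones in immune cells and after interferon. Of the 3 tested, 2 were lower in MERKO and 1 higher, all with wide intervals and overlapping groups. Psmb8 stood at 3.47, 3.54 and 4.28 CPM in MERKO 1 to 3, against 2.69, 3.71 and 4.10 in control 1 to 3 (log2 fold change 0.10, 95% interval -0.38 to 0.57). Psmb9 was between 1.67 and 2.02 CPM in all 6 libraries (-0.01, -0.50 to 0.47), and Psmb10 was at 5.24 ± 1.25 CPM in MERKO against 5.87 ± 0.68 CPM in control (-0.13, -0.58 to 0.32). With 24 to 285 counts per library, these intervals are wider than those of the ordinary catalytic genes, and the difference between the inducible and the ordinary genes was not tested. Psmb8 was lower in MERKO under library totals without a composition factor, without MERKO 3 and without control 1, Psmb9 was higher without MERKO 1 or control 2, and Psmb10 was higher without MERKO 2. Psmb11, the thymus-specific subunit, had 0 counts in every library, which allows up to 0.253 CPM in MERKO 2, the smallest library after scaling (3 counts, counting error only).

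Leukocyte markers, given beside the inducible genes, summed to 150 to 213 CPM in MERKO against 151 to 262 CPM in control, with 7 of 13 tested markers higher and 6 lower. The T cell marker Cd3e was at 0 in 3 libraries. Their part in the inducible genes was not tested. Of 23 tested genes of MHC class I antigen processing and interferon signalling, 14 were higher and 9 lower (median log2 fold change 0.04), and 0 passed. Their lowest p belonged to Ifngr2, a chain of the interferon gamma receptor (log2 fold change -0.21, SE 0.10).

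Levels can be compared between genes only per length, and CPM per kb of each gene's principal transcript was used for this. The inducible genes were scarce. Per length, Psmb8 reached 6.66% to 11.9% of Psmb5, Psmb10 3.05% to 5.23% of Psmb7, and Psmb9 1.08% to 1.41% of Psmb6, over the 6 libraries. The ranges of MERKO and control overlapped in all 3 ratios. With the length of all annotated exons in place of the principal transcript the ratios were 3.20% to 5.74%, 6.92% to 11.9% and 0.94% to 1.22%, so the order of the first and second pairs depends on the transcript model.

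**Figure D2:**
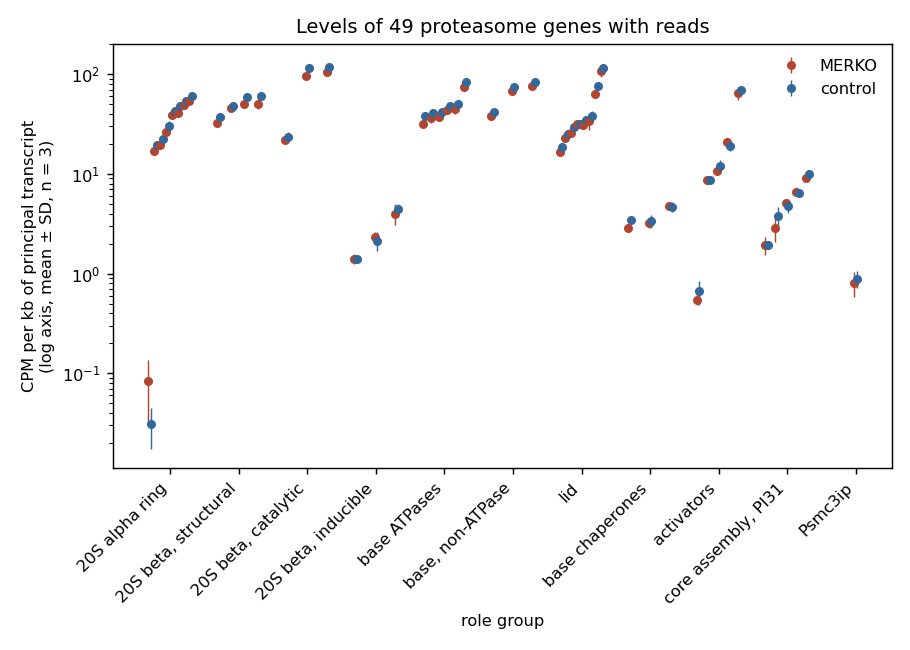
CPM per kb of principal transcript (vertical log axis, mean ± SD of 3 libraries) for the 49 genes with reads, by role, with MERKO and control side by side. Group means of the standard subunits lie between 16.7 and 118.7, the inducible beta genes and the chaperones of the base below 5, and the activator Psme4 stands with the standard subunits.

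The mean levels of the standard subunits over the 6 libraries ranged from 17.7 CPM per kb for Psmd13 to 112.1 CPM per kb for Psmb6, a 6.32-fold span, although the particle holds them in fixed numbers. The alpha genes spanned 3.15-fold, from Psma2 to Psma7, and the lid genes 6.32-fold, from Psmd13 to Psmd8. Psmb6 and Psmd8 (112 CPM per kb each) and Psmb7 (105) led the order, and the first and second did not differ beyond their spread (SD of 5.26 to 13.8 CPM per kb within a group). Psmb5 stood at 22.8 CPM per kb, 4.91-fold below Psmb6, or 2.09-fold below it with all annotated exons as the length. With all annotated exons as the length, Psmd8 came first and Psmb6 had rank 5, and the span was 9.12-fold. Among the tested genes Psme2b, a retrogene copy of Psme2, was lowest at 0.608 CPM per kb.

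The 6 ATPases of the base were all lower in MERKO, between -0.27 and -0.12 on the log2 scale. Psmc6 had the lowest p of all 48 genes. It stood at 66.3, 72.6 and 72.3 CPM in MERKO 1 to 3, against 79.7, 80.6 and 93.5 in control 1 to 3. The groups did not overlap, and control 3 was highest (log2 fold change -0.27, SE 0.10, 95% interval -0.50 to -0.04, adjusted p = 0.683, edgeR). Psmc4 was at 53.2 ± 1.02 CPM in MERKO against 59.8 ± 4.95 CPM in control, without overlap, and Psmc5 at 58.5 ± 6.04 and 66.5 ± 3.65 CPM, with overlap. The 3 other base genes, Psmd1 and Psmd2 (the large scaffolds) and Psmd4 (a ubiquitin receptor), had nearly equal log2 fold changes of -0.14, -0.15 and -0.13. Psmd2 stood at 185, 207 and 206 CPM in MERKO 1 to 3, against 212, 227 and 222 in control 1 to 3, without overlap.

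The lid held 7 genes that were lower and 1 that was higher. Psmd6, a scaffold of the lid, stood at 78.3, 89.5 and 94.1 CPM in MERKO 1 to 3, against 103, 99.98 and 113 in control 1 to 3, without overlap (log2 fold change -0.27, SE 0.10, 95% interval -0.51 to -0.03, adjusted p = 0.683, edgeR). Psmd14, the deubiquitinase of the lid, was at 37.0, 39.1 and 41.7 CPM in MERKO against 43.8, 46.2 and 47.5 CPM in control. Again every MERKO library was lower (-0.22, SE 0.09, -0.43 to -0.02). Psmd13 was at 33.2 ± 1.74 and 37.4 ± 0.46 CPM, without overlap. Psmd3, a scaffold of the lid singled out after its values were seen, was the only standard subunit that was not lower (68.6 ± 5.57 and 67.4 ± 3.18 CPM, log2 fold change 0.03). Its sign was negative under library totals without a composition factor, without MERKO 3 and without control 3.

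Of the 3 chaperones of the base, 2 were lower and 1 higher, and their intervals overlapped. Psmd5 stood at 12.5, 11.7 and 13.8 CPM in MERKO 1 to 3, against 15.2, 15.9 and 14.8 in control 1 to 3, without overlap (log2 fold change -0.27, SE 0.11, 95% interval -0.52 to -0.03, adjusted p = 0.683, edgeR). The log2 fold change was -0.09 (-0.47 to 0.29) for Psmd10 (gankyrin) and 0.02 (-0.25 to 0.29) for Psmd9, and the sign turned without control 3 for Psmd10, and without MERKO 3, without control 1 or with no composition factor for Psmd9. Exons of Gm26745 on the other strand cover 25.5% of the exon length of Psmd9, so its count may hold other reads.

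Of the 5 activators, 4 were lower and 1 higher, and the groups overlapped in all of them. Leaving out MERKO 1 turned the sign of Psme4 (log2 fold change 0.035 in place of -0.081) and of Psme3 (0.039 in place of -0.015). Psme4 (PA200), a large single-chain cap, had the most reads of any member, at 351, 457 and 457 CPM in MERKO 1 to 3, against 414, 477 and 446 in control 1 to 3. The groups overlapped, and MERKO 1 was lowest (log2 fold change -0.08, 95% interval -0.40 to 0.24). Per length it stood at 6.76 to 8.19 times Psme3 and 2.56 to 4.02 times Psme1 in the 6 libraries, and this excess was also seen with all annotated exons as the length (5.80 to 7.02 and 3.94 to 6.18 times). Psme1, a chain of the PA28 cap that interferon induces, had the highest log2 fold change of all tested members, at 23.5, 23.1 and 22.4 CPM in MERKO against 23.3, 20.8 and 19.0 CPM in control (0.13, -0.11 to 0.37). Its partner chain Psme2 was at 10.4 ± 0.97 and 11.6 ± 1.65 CPM (-0.16, -0.48 to 0.16). The ratio of Psme1 to Psme2 per length was 1.22 in control 3 and 1.73 to 2.14 in the other libraries. Psme2b had 6 to 40 counts per library and the lowest log2 fold change, -0.37 with an interval of -1.21 to 0.47, and reads could be shared with Psme2.

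Of the genes for core assembly and inhibition, 3 were higher and 2 lower, and all 3 of the higher (Psmg1, Psmg3 and the inhibitor Psmf1) were lower with no composition factor. Psmg1, a chaperone of alpha ring assembly, stood at 5.39 ± 0.30 CPM in MERKO against 5.01 ± 0.79 CPM in control (log2 fold change 0.09, lower in MERKO without control 2 and under library totals without a composition factor). Psmg2 was at 9.63 ± 0.40 and 10.5 ± 0.97 CPM, and Psmg4 at 1.61 ± 0.45 and 2.12 ± 0.44 CPM. Psmc3ip stood at 1.04 ± 0.30 and 1.15 ± 0.23 CPM (log2 fold change -0.09, higher in MERKO without MERKO 3, without control 1 and in limma-voom). All of these groups overlapped.

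The difference was spread over the libraries unevenly. Relative to the mean of the 6 libraries, the median standard subunit stood at -0.16, -0.05 and -0.03 in MERKO 1 to 3 and at 0.05, 0.02 and 0.18 in control 1 to 3, in log2 (CPM + 0.5). The medians of all tested genes stayed between -0.01 and 0.00220. Control 3 was the highest library in 26 of the 31 standard subunits, against 18.1% of all genes, and MERKO 1 the lowest in 23 of 31, against 21.7%. The coefficient of variation between libraries had a median of 6.27% in MERKO and 8.08% in control for the standard subunits, and of 13.7% and 12.3% for all tested genes. These medians were not matched for abundance.

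**Figure D3:**
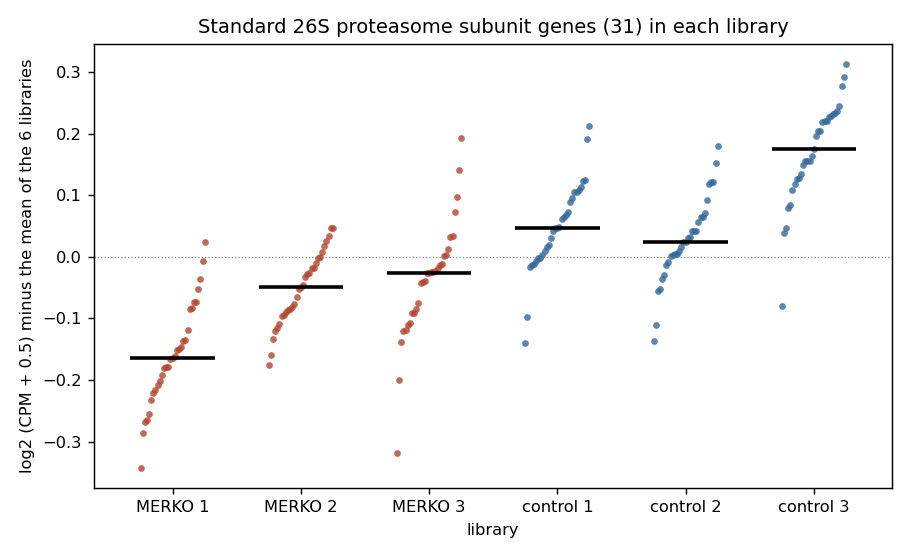
Each point is 1 of the 31 standard subunit genes in 1 library, as log2 (CPM + 0.5) minus that gene's mean over the 6 libraries, and black bars are medians. MERKO 1 (median -0.16) and control 3 (0.18) lie farthest from 0, and the other 4 libraries lie between -0.05 and 0.05.

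Summed over the 31 standard subunits, the libraries held 2016, 2215 and 2235 CPM in MERKO 1 to 3, against 2349, 2338 and 2568 in control 1 to 3. Each MERKO library lay below each control library, and the mean differed by -10.9%, or by -8.02% when control 3 was not counted. The 14 core genes summed to 745 to 764 CPM in MERKO against 801 to 934 CPM in control, and the 17 cap genes to 1270 to 1478 and 1497 to 1634 CPM. The inducible genes (9.43 to 11.8 and 11.1 to 11.4 CPM) and the activators (408 to 515 and 470 to 534 CPM) overlapped between groups. These sums have no test, since the members were chosen with results of these data known.

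How large the difference was depended on MERKO 1 and control 3. Without both libraries, 27 of the 31 standard subunits were still lower, but the median was -0.08 in place of -0.17, and 35 of 47 tested members were lower, with a median of -0.06. Without control 3 alone, 31 of 31 standard subunits were lower, against 48.9% of all genes, and the median of all tested members was -0.10 in place of -0.15. Under library totals without a composition factor, the median of all genes moved from 0.01 to -0.10 and 67.7% of them lay below 0. There 47 of 48 members were lower, with a median of -0.28, but 0 had groups that did not overlap. The share of all genes without overlap under that setting is not given here, so the 0 cannot be read as particular to the members. The composition factors ran from 0.755 in MERKO 2 to 1.24 in MERKO 1.

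**Figure D4:**
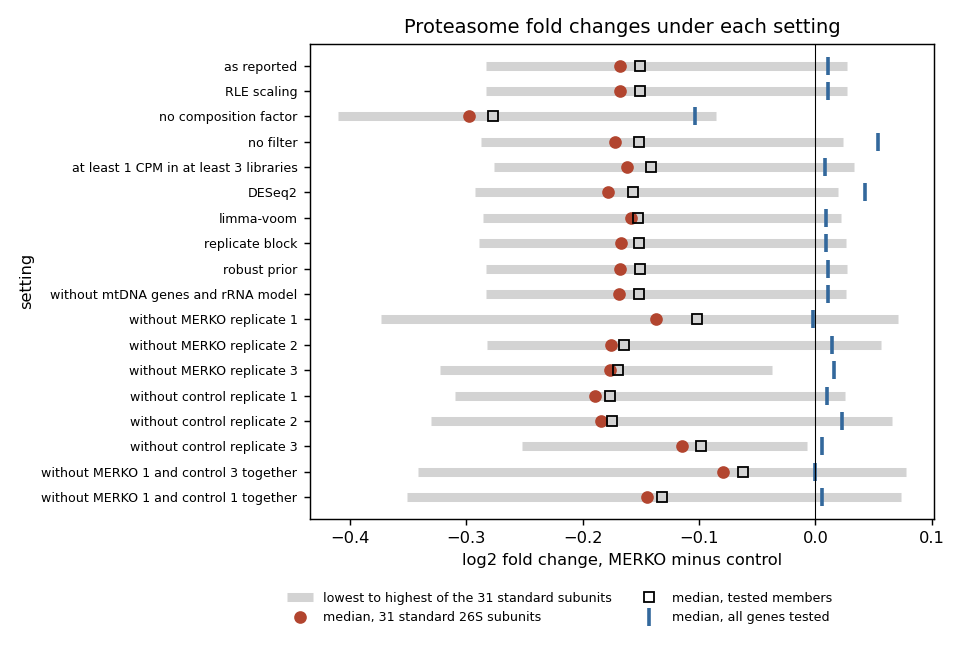
Median log2 fold change (MERKO minus control) of the 31 standard subunits (filled circles), of the tested members (open squares) and of all genes tested (blue ticks) under each setting, and grey bars from the lowest to the highest standard subunit. The proteasome medians lie left of 0 in all settings shown, nearest to 0 without MERKO 1 and control 3 together (-0.08 and -0.06).

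Other genes of the pathway were counted from lists drawn up by function. The 17 proteasome partners (assembly factor, receptors, deubiquitinases and shuttle factors) were lower in 11 cases with a median log2 fold change of -0.07. Pomp, which chaperones the last steps of core assembly, had their lowest p, at 33.5 ± 0.94 CPM in MERKO against 38.9 ± 4.80 CPM in control, without overlap (log2 fold change -0.22, SE 0.11). The cap subunits Adrm1 and Sem1, given after their values were seen, had log2 fold changes of 0.003 (SE 0.11) and -0.12 (SE 0.11), with overlap. Ubiquitin genes and E1 enzymes were lower in 6 of 8 (median -0.15), with the ubiquitin fusion gene Rps27a at 52.0 ± 0.40 and 63.6 ± 8.66 CPM (-0.29, SE 0.11). E2 enzymes were lower in 17 of 21 (median -0.08), with Ube2o, a hybrid E2 and E3 enzyme, higher at 23.2 ± 1.73 and 19.6 ± 0.98 CPM (0.25, SE 0.10). Vcp, the segregase that feeds the proteasome, and its cofactors were lower in 13 of 16 (median -0.04), with Ubxn6 at -0.24 (SE 0.11). None of these genes passed the edgeR test.

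Among 21 ubiquitin ligases of muscle, 14 were lower, with a median log2 fold change of -0.06. Trim63 (MuRF1), which marks myofibrillar proteins in atrophy, had their lowest p. It stood at 227, 215 and 369 CPM in MERKO 1 to 3, against 472, 339 and 602 in control 1 to 3. MERKO 3 lay above control 2, so the groups overlapped (log2 fold change -0.80, SE 0.26, adjusted p = 0.671, edgeR). It passed with no filter on low counts (adjusted p = 0.0494, edgeR) and with the replicate number as a block (0.0217). Of 14 candidate transcription regulators of proteasome genes, 8 were lower and 6 higher (median -0.04). Nfyb, a subunit of the factor that binds CCAAT, was at 21.4 ± 0.40 CPM in MERKO against 27.2 ± 4.34 CPM in control (-0.35, SE 0.12), without overlap, and did not pass. The other subunits of that factor, given after their values were seen, were higher. Nfya stood at 4.68 ± 0.59 CPM in MERKO against 3.52 ± 0.38 CPM in control, with every MERKO library above every control library (0.42, SE 0.17, adjusted p = 0.683, edgeR), and Nfyc had a log2 fold change of 0.11 (SE 0.10), with overlap.

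The lid shares its architecture with the COP9 signalosome, which removes the ubiquitin-like Nedd8 from ligases, and with the translation factor eIF3. All 9 COP9 genes were lower, their median log2 fold change was -0.22, and 6 of 9 did not overlap. Cops7a stood at 34.9 ± 2.42 CPM in MERKO against 41.3 ± 3.50 CPM in control (-0.25, SE 0.10, adjusted p = 0.687, edgeR). The eIF3 genes were lower in 11 of 14 (median -0.05), with Eif3e at 85.2 ± 3.33 and 107 ± 12.8 CPM (-0.33, SE 0.11). The CCT chaperonin, a folding complex unrelated to the lid, was lower in 7 of 8 (median -0.10), with Cct5 at 91.6 ± 5.78 and 102 ± 4.25 CPM (-0.16, SE 0.09). In these 3 complexes too the median gene was lowest in MERKO 1 and highest in control 3, at -0.23 and 0.20 for COP9, -0.12 and 0.16 for eIF3, and -0.06 and 0.10 for CCT. The difference between these lists and the standard subunits was not tested.

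**Figure D5:**
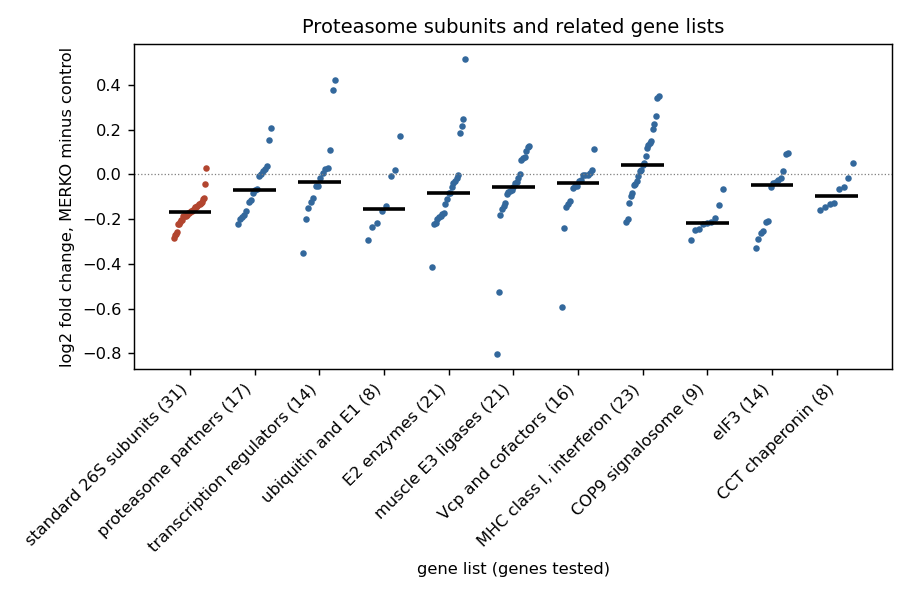
Log2 fold change (MERKO minus control, vertical axis) of each tested gene in the 31 standard subunits (red) and in 10 related lists (blue), with black bars at the medians. The standard subunits (median -0.17) and COP9 (-0.22) lie almost wholly below 0, and the MHC class I and interferon list lies around 0.04.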

How the data were processed

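Quadriceps RNA sequencing libraries, 3 MERKO and 3 control, were analysed. The authors deposited raw read counts for 48795 features, 1 column per library. Per the submitters' processing notes, the tools were HTSeq 0.9.1, STAR 2.5.2b and DESeq, with builds named as GRCm38 and mm10. Tool roles, strand setting, annotation release and the treatment of multiply placed reads are not given in the sources used. Exons of 15 members overlap those of other genes (0.342% to 25.5% of exon length), and such reads may be shared. The 4 Psm pseudogenes had 0 counts.

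Groups came from sample titles. Symbols were matched to 48349 features. Biotypes, coordinates and principal transcripts (APPRIS tags, used for CPM per kb) came from GENCODE M21. All genes were fitted with edgeR 4.0.16 (filterByExpr, TMM, quasi-likelihood test, genotype as the only term), with Benjamini-Hochberg adjustment over 13628 genes and a threshold of 0.05. The biological coefficient of variation was 18.6%. SE and 95% intervals come from that fit. Within each group the libraries differed by far more than sampling noise (lowest chi-square per degree of freedom 109.6). That measure used raw counts with the rRNA gene model included. Some pairs across the groups had lower values, down to 25.72 for MERKO 2 and control 2. The code was tested on simulated data.

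Members and lists were chosen with earlier results of these data known. Named genes were Esr1, Psmb5 to Psmb10, the 3 lowest-p members per role, the lowest-p gene per list, any gene that passed, and the extremes of fold change and level; any other gene was chosen after its values were seen. Alternatives were RLE or no composition factor, other filters, DESeq2 1.42.0, limma-voom (limma 3.58.1), a replicate block, a robust prior, a threshold of 0.1, removal of mitochondrial DNA genes and the rRNA model, and leaving out libraries. The removal of MERKO 1 with control 3, or with control 1, was chosen after seeing the data.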

Additional observations from a re-analysis of the deposited data

How the results depend on the processing

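No proteasome gene passed the threshold as reported or under any alternative run. The number of genes that passed, 1 as reported, was 93 with no composition factor, 140 with no filter, 23 with DESeq2, and 0 to 11 when single libraries were left out. Esr1 had log2 fold changes of -2.08 to -1.84 in those leave-one-out fits, and missed the threshold without MERKO 1 (adjusted p = 0.102, edgeR), MERKO 2 (0.0576), control 2 (0.109) or control 3 (0.0632). The median of the proteasome genes, -0.15 as reported, was -0.28 with no composition factor, -0.18 to -0.10 when single libraries were left out, and -0.062 without MERKO 1 and control 3 together. Non-overlapping proteasome genes numbered 0 with no composition factor, in place of 17, and the share of all genes is not given beside that 0. The cause was not tested.

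Among the proteasome genes named by the rule, signs turned for 7 in the fits with all or all but 1 of the libraries, all far from the threshold. Of those outside the rule, they turned for Psmd3, Psme3, Psme4, Psmf1 and Psmg3. With no composition factor the log2 fold change was -0.027 for Psmb8, -0.10 for Psmd9 and -0.048 for Psmg1, and in limma-voom it was 0.015 for Psmc3ip. Over the fits without 1 library it ran from -0.29 to 0.030 for Psmb10, -0.064 to 0.26 for Psmb8, -0.062 to 0.083 for Psmb9, -0.34 to 0.12 for Psmc3ip, -0.17 to 0.040 for Psmd10, -0.067 to 0.090 for Psmd9 and -0.016 to 0.17 for Psmg1. Trim63 passed with no filter (-0.81, adjusted p = 0.0494, edgeR).

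Same-numbered libraries deviated together with correlations of 0.448, 0.163 and 0.0612. Of the unlike-numbered pairs, MERKO 2 and control 3 had 0.184, MERKO 3 and control 2 had 0.137, and the rest lay between -0.31 and -0.18. Since MERKO 2 went with control 3 at least as closely as with control 2, the numbers were not taken to pair the libraries. Whether they do is not known. With the replicate number as a block 51 genes passed, Trim63 among them (-0.81, adjusted p = 0.0217, edgeR). The block left 41 of 48 proteasome genes lower, 0 past the threshold and a median of -0.15. The largest standard errors were those of Psme2b (0.37), Psmc3ip (0.33), Psmg4 (0.28) and Psmg3 (0.25).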
